A study of Mus musculus with 9 samples.

Results

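In alphaTC1 cells, a murine pancreatic alpha cell line, 616 open chromatin regions were more accessible in all libraries with an shRNA, against either Smndc1 or Atrx, than in all empty vector libraries. They were selected on their measured levels: a region was a member when the lowest of the 6 shRNA libraries lay above the highest of the 3 empty vector libraries, the mean of the 6 was at least 1.4 times the empty vector mean, and the mean of all 9 was at least 3 CPM (the count scaled to a common library total). The 616 members are 0.99% of the 62242 regions with a mean of at least 3 CPM, in a table of 80827 consensus regions. Because both comparisons with empty vector chose the members, their levels against empty vector are a description, and no call or p-value is used as support for them. The difference between the shRNAs was not a criterion and was tested, but the need for every shRNA library to lie above empty vector limits how far apart the shRNA groups of a member can be.

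Open chromatin was measured by ATAC-seq, in which a transposase cuts and tags accessible DNA, so that a count reports how often a stretch was open to the enzyme across the cells of a sample. The 9 libraries formed 3 groups of 3 biological replicates, all alphaTC1 cells collected on day 5 after transduction: Smndc1 shRNA (labelled sh95), Atrx shRNA, and an empty vector that carries no such shRNA. Each gene was therefore targeted by 1 shRNA label in 1 cell line, and all groups share the transduction. Library totals ran from 5290810 to 8145228 counts, and the median count of a member was 24.0 to 44.0 per library. In replicate 3 of every group, counts were spread more evenly over regions: the strongest 10% of regions held 38.6% to 38.8% of counts there and 43.3% to 48.8% in the other 6 libraries.

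Smndc1 is a splicing factor whose Tudor domain binds methylated arginine, and it takes part in assembling the spliceosome. Atrx is a chromatin remodeler that, with its partner Daxx, places the histone variant H3.3 into heterochromatin, telomeres and repeats. Open regions at gene starts are mostly promoters, while those inside or between genes include enhancers, which bind transcription factors and differ more between cell types. In pancreatic endocrine cells, a small set of homeobox and forkhead factors at such sites sets hormone identity.

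The cells were checked by accessibility at gene ends, within 1000 bp outside to 500 bp inside either bound of a coding gene. The ends of the alpha cell genes Gcg, Pcsk2, Irx1 and Irx2 were open with empty vector, at summed levels of 74.9, 61.6, 56.1 and 24.6 CPM, and Ttr stood at 1.23. No region lay at the ends of Ins1, Ins2, Pdx1, Sst or Ppy, of the endothelial genes Pecam1, Cdh5 and Kdr, or of Ptprc, Csf1r, Col1a1, Col1a2, Cpa1 and Ptf1a. Mafa (61.1 CPM), Cd68 (15.3), Cela1 (19.2) and Pdgfra (4.79) had 1 each. None of these marker genes had a member at its ends.

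Most members lay away from annotated gene starts, but 21 of them overlapped 23 promoter windows, here the 250 bases before a RefSeq gene start (GRCm38.p6). These windows belong to 21 genes, and 3 of them, of which 2 overlap, lie in the 1 strong Bbc3 region, so the shares below count that locus up to 3 times. A window is in the table for 408 of the 515 coding genes assigned to members. The following 5 windows lie in strongly open members; Bbc3, Cdkn2c and Txnrd1 are on the gene lists described below, and Tob2 and Zmiz1 are the strongest of the others. Each is printed on its gene's strand, 5′ to 3′, and capitals mark matches on either strand to 2 motifs, the GC box GGGCGGG bound by SP and KLF factors and the homeobox core TAATTA.
Bbc3 (chr7:16309333-16309582, plus strand): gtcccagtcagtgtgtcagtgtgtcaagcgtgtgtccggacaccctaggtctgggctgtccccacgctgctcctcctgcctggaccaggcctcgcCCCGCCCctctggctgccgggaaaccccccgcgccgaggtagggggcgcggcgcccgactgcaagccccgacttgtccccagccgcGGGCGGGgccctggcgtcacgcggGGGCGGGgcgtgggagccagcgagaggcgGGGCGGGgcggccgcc
Cdkn2c (chr4:109665373-109665622, minus strand): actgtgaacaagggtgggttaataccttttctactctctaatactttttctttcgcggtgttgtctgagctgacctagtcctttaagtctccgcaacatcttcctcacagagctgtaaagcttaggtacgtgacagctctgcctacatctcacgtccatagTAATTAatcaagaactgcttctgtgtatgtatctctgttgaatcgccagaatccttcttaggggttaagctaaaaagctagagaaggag
Txnrd1 (chr10:82860091-82860340, plus strand): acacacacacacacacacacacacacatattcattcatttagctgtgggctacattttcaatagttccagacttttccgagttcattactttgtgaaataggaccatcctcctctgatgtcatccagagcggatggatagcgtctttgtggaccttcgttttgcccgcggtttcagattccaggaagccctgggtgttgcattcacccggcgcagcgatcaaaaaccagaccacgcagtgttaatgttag
Tob2 (chr15:81858327-81858576, minus strand): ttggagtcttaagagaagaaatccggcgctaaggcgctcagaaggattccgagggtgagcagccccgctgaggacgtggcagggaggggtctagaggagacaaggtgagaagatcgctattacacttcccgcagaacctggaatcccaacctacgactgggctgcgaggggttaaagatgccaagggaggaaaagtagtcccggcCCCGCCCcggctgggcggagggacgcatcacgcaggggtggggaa
Zmiz1 (chr14:25458935-25459184, plus strand): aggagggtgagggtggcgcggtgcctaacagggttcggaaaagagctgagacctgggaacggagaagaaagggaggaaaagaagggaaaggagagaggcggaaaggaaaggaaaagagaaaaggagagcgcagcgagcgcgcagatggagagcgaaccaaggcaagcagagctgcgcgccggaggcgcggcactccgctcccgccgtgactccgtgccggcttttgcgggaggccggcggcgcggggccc

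The Bbc3 window holds 4 GC boxes, with 76.4% G or C, and the Tob2 window holds 1 GC box. The AT-rich window of Cdkn2c, 42.8% G or C, holds the homeobox core once. Neither motif occurs in the windows of Txnrd1 and Zmiz1, which differ in composition at 47.2% and 64.8% G or C. Over all member windows, a GC box was present in 8 of 23 (34.8%), against 44.6% of the 12094 windows in regions of at least 3 CPM and 23.4% of all 32851 windows. A TATA box (TATAAA, either strand) was present in 4 of 23 (17.4%), against 5.22% and 12.4%. The AP-1 motif TGANTCA was present in 2 of 23 (8.70%), against 4.14% and 6.75%. The cyclic AMP response element TGACGTCA and the RFX half-site GTTGCCA were present in 0 of 23 windows, against 2.92% and 3.47% of windows in regions of at least 3 CPM. The median G or C content was 63.6% in member windows, 61.2% in windows of regions of at least 3 CPM and 52.4% in all windows. These matches describe letters in a window and give no evidence of binding.

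The median member stood 1.81 times higher in the shRNA mean than with empty vector, with quartiles of 1.57 and 2.10 and a range from 1.401 to 4.31. A ratio of at least 2 was reached by 194 members and one of at least 3 by 19. Most members are weakly open: the median level was 5.68 CPM, against 7.56 over all regions of at least 3 CPM, and 323 were under 6 CPM. Only 70 were at 20 CPM or more, the highest at 87.3 CPM. The weaker a member, the larger its ratio tended to be, as the plot of ratio against level shows. Members were chosen on ratio and separation, so this relation is not independent of the rule.

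**Figure D1:**
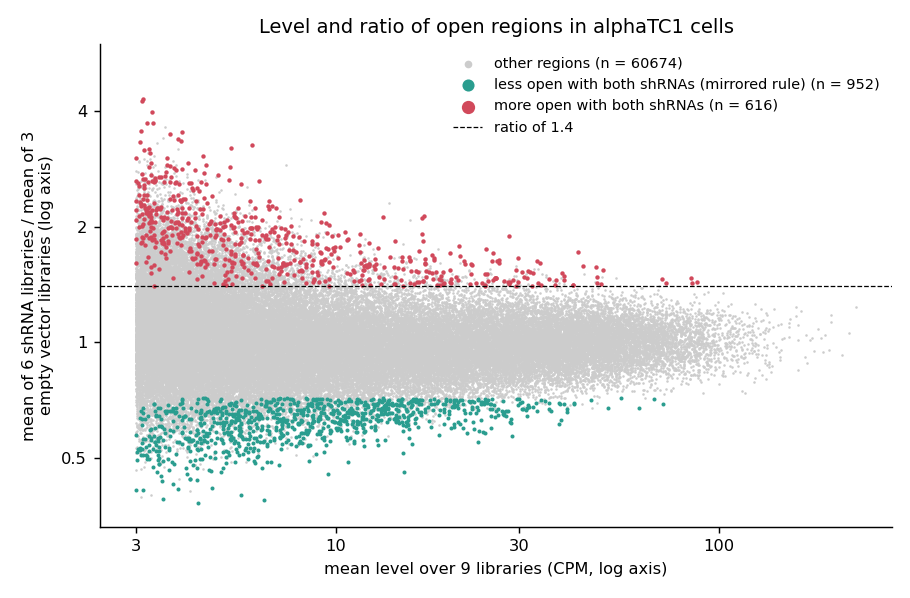
Mean level over 9 libraries (CPM, log axis) against the ratio of the shRNA mean to the empty vector mean (log axis), 1 point per region of at least 3 CPM. The 616 members lie above the dashed line at a ratio of 1.4, with ratios from 1.401 to 4.31 that are highest among regions under 6 CPM, and 952 regions meet the mirrored rule.

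The 3 members nearest above the ratio threshold, at Mylk4, Ttll5 and Ube2r2, each had a ratio of 1.401. The 3 regions nearest below it, at Frem2, Wdr25 and Wdr11, had ratios of 1.398, 1.396 and 1.396 and were otherwise separated in the same way. Without the ratio threshold, 886 of the 62242 regions had all shRNA libraries above all empty vector libraries, and more, 1629, had all of them below. The mirrored rule, with all shRNA libraries below, was met by 952 regions (1.53%), so that members made up 39.3% of the 1568 regions that met either rule. That split depends on the scaling: with TMM sizes, library sizes adjusted so that most regions do not differ, it was 670 higher and 1007 lower (39.95% higher), and with trended offsets, which remove each library's difference in spread between strong and weak regions, 897 higher and 888 lower (50.3% higher).

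Of the regions assigned to cell cycle genes 6 of 128 were members (4.69%), and of those assigned to p53 target genes 4 of 75 (5.33%), beside 0.99% of all regions. With TMM sizes the 2 lists held 2 members each, and with trended offsets 7 and 5. The mirrored rule was met by 1 cell cycle region and 2 p53 target regions, beside 1.53% of all regions. The first Bbc3 region and the members at Cdkn1a, Cdkn1b and Cdkn2c met the rule with column totals and trended offsets and not with TMM sizes. Bbc3 encodes PUMA, a p53 target that triggers apoptosis. The region over its promoters, at chr7:16309126-16311304, stood at 84.3, 107 and 85.5 CPM in the 3 Smndc1 shRNA libraries, 111, 113 and 81.8 in the 3 Atrx shRNA libraries, and 73.6, 72.6 and 56.8 with empty vector. Both shRNA groups lay above all empty vector libraries, by 8.21 CPM at the closest, and replicate 3 was the lowest of the 3 empty vector libraries and the lowest of the Atrx shRNA libraries. A second Bbc3 region further into the gene, at chr7:16311891-16312391, stood at 14.8, 22.2 and 21.1 CPM in the 3 Smndc1 shRNA libraries, 18.1, 13.8 and 16.7 in the 3 Atrx shRNA libraries, and 9.76, 11.7 and 13.4 with empty vector. Its groups were separated by 0.412 CPM. Of 5 regions assigned to Bbc3, these 2 were members.

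Cdkn1a and Cdkn1b encode the cyclin-dependent kinase inhibitors p21 and p27, which stop cells entering S phase. The member inside Cdkn1a, at chr17:29094652-29095198, stood at 50.5, 63.8 and 44.1 CPM in the 3 Smndc1 shRNA libraries, 64.3, 53.7 and 45.8 in the 3 Atrx shRNA libraries, and 35.96, 41.4 and 31.8 with empty vector. The member 1.25 kb from Cdkn1b, at chr6:134926777-134927947, stood at 50.6, 66.9 and 43.6 CPM in the 3 Smndc1 shRNA libraries, 60.6, 56.9 and 47.7 in the 3 Atrx shRNA libraries, and 36.9, 38.5 and 28.3 with empty vector. At both, replicate 3 was the lowest library of each group, and the groups did not overlap. Cdkn2c, which encodes the kinase inhibitor p18, had 2 members among its 5 assigned regions. The stronger covers the promoter window printed above, at chr4:109665116-109665949, and stood at 26.1, 33.2 and 25.5 CPM in the 3 Smndc1 shRNA libraries, 36.4, 34.97 and 25.6 in the 3 Atrx shRNA libraries, and 22.7, 17.9 and 15.1 with empty vector. The lowest shRNA library exceeded the highest empty vector library by 2.78 CPM. The weaker, 1.62 kb outside the gene, had a ratio of 1.67 at a mean of 14.9 CPM.

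Tob2, an antiproliferative gene of the BTG and TOB family that is on none of the lists, had a gene-end member at chr15:81857759-81859496, with 88.97, 109 and 79.4 CPM in the 3 Smndc1 shRNA libraries, 111, 98.5 and 81.5 in the 3 Atrx shRNA libraries, and 61.5, 78.7 and 58.4 with empty vector. Empty vector replicate 2 came within 0.746 CPM of the lowest shRNA library, and the region did not meet the rule with TMM sizes. Genes of cyclins, which drive rather than restrain division, also had members. A region at an end of Ccnb1, the mitotic cyclin, had a ratio of 1.79 at 3.17 CPM. One 11.8 kb from Ccne1, the cyclin of entry into S phase (added after its values were seen), had a ratio of 1.54 at 11.1 CPM. Aen, a p53-induced nuclease, had a member 14.0 kb from the gene with a ratio of 1.99 at 5.95 CPM. Cdkn1a and both Bbc3 regions are counted among the p53 targets, and Cdkn1a in both lists. The median log2 ratio over all regions of the 2 lists was 0.05 and 0.04, against 0.01 over all regions. The middle of each list thus stood near its empty vector level, and the spread around it is not given.

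**Figure D2:**
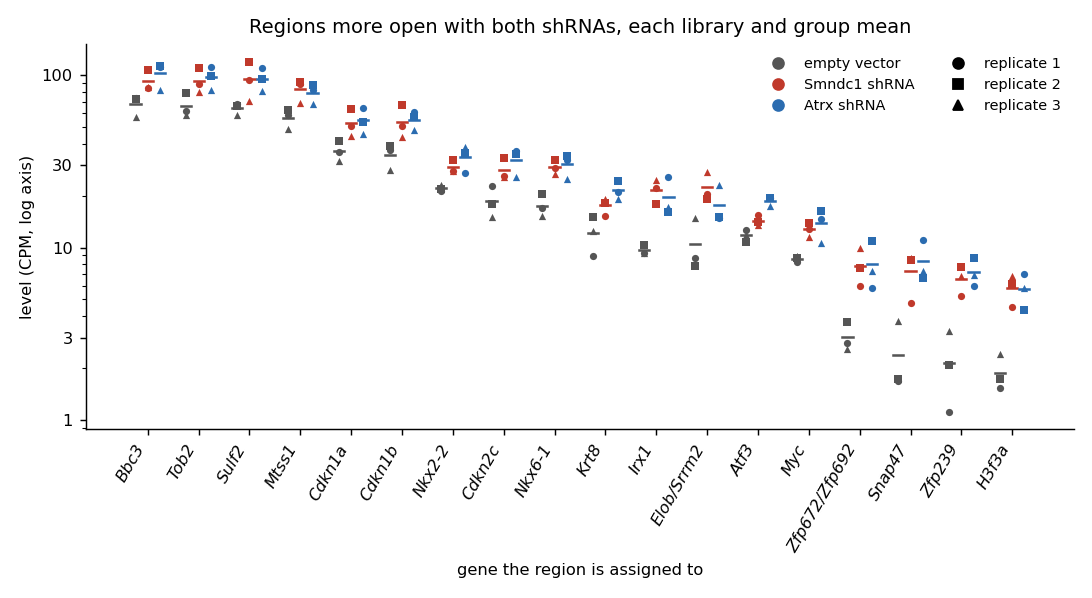
Level in CPM (log axis) of 18 members in each library, by the gene assigned, with lines for the mean of each group of 3 libraries and a marker shape for each replicate number. In every member shown the empty vector points lie below both shRNA groups, which the choice of members requires, and the gap is narrower in the strongest members than in the 4 weakest.

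Transcription factors of pancreatic endocrine cells had 5 members among 173 assigned regions (2.89%), and 5 and 8 with the other 2 scalings. The median log2 ratio over all 173 was 0.20 (0.19 with trended offsets), the highest of the endocrine and other cell type lists. Others came close: the immune and endothelial lists stood at 0.17 each, and the exocrine list at 0.18 with trended offsets. Outside the cell type lists, Hox genes, with 0 members, stood higher at 0.23. Isl1 and Nkx2-2 are needed for islet hormone cells to form, and Neurog3 starts the endocrine programme. The Isl1 member, inside the gene at chr13:116301724-116302224, stood at 13.8, 10.4 and 8.498 CPM in the 3 Smndc1 shRNA libraries, 11.4, 9.83 and 10.1 in the 3 Atrx shRNA libraries, and 5.02, 7.61 and 6.86 with empty vector. The Nkx2-2 member, at chr2:147181873-147182526, stood at 27.7, 31.97 and 27.9 CPM in the 3 Smndc1 shRNA libraries, 27.03, 35.2 and 38.1 in the 3 Atrx shRNA libraries, and 21.3, 21.9 and 23.00 with empty vector. The gap between the lowest shRNA and the highest empty vector library was 0.887 CPM at Isl1 and 4.04 CPM at Nkx2-2. A region 5.11 kb from Neurog3 had a ratio of 1.97 at 4.88 CPM. A region over the promoter of the pioneer factor gene Foxa2, singled out after its values were seen, had a ratio of 1.41 at 41.5 CPM.

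Among the alpha cell genes, Irx1 had the only member of 107 assigned regions (0.935%), beside 2 and 5 members with TMM sizes and trended offsets. Irx1 encodes an Iroquois homeobox factor found in alpha cells. Its member, inside the gene at chr13:71959221-71959757, stood at 22.02, 17.8 and 24.8 CPM in the 3 Smndc1 shRNA libraries, 25.7, 16.1 and 17.2 in the 3 Atrx shRNA libraries, and 9.34, 10.3 and 9.27 with empty vector. Every shRNA library was at least 1.56 times the highest empty vector library. The beta cell list held 2 members of 30 regions (6.67%). Nkx6-1, a homeobox gene of beta cells, had one inside the gene at chr5:101662678-101663669, which stood at 29.1, 32.1 and 26.6 CPM in the 3 Smndc1 shRNA libraries, 32.3, 34.02 and 25.02 in the 3 Atrx shRNA libraries, and 16.9, 20.4 and 15.3 with empty vector. The 3 empty vector libraries were the lowest, by 4.64 CPM. The other was 7.28 kb from Ero1b, a disulfide oxidase gene, with a ratio of 1.66 at 10.1 CPM. The lists of endothelial and exocrine genes held 1 member each, 10.4 kb from Flt1 (1 of 27 regions) and inside Cpa1 (1 of 11). The immune, fibroblast and other islet hormone lists held 0 of 10, 0 of 29 and 0 of 7.

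Srrm2 encodes a large spliceosome scaffold and lies end to end with Elob, the elongin B gene. The region at their shared end, at chr17:23822839-23823881, stood at 20.4, 19.2 and 27.5 CPM in the 3 Smndc1 shRNA libraries, 14.8, 14.9 and 22.9 in the 3 Atrx shRNA libraries, and 8.64, 7.86 and 14.8 with empty vector. Empty vector replicate 3 stood well above the other empty vector libraries and reached Atrx shRNA replicate 1 to within 0.00140 CPM, so the groups only just failed to overlap. The other members of the splicing list were inside Snrnp70, the U1-70K gene (ratio 1.72 at 3.501 CPM), and 2.39 kb from Ddx39b, an RNA helicase gene (1.65 at 17.1 CPM), which makes 3 of 241 regions (1.24%).

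H3f3a, which encodes histone H3.3, the variant that Atrx helps to place, had a member inside the gene at chr1:180806260-180806760, with 4.49, 6.14 and 6.84 CPM in the 3 Smndc1 shRNA libraries, 7.01, 4.35 and 5.86 in the 3 Atrx shRNA libraries, and 1.53, 1.72 and 2.402 with empty vector. The lowest shRNA library was 1.81 times the highest empty vector library. Cbx1, the gene of a heterochromatin protein 1 family member, had one with a ratio of 1.603 at 8.37 CPM. These were 2 of the 56 regions of Atrx partners and heterochromatin genes (3.57%). Among chromatin remodelers, 3 of 268 regions (1.12%) were members, beside 6 with TMM sizes and 8 with trended offsets: inside Arid5b (3.38), 8.75 kb from Suz12 (2.82), a Polycomb subunit gene, and inside Arid1b (1.45), a subunit gene of the BAF complex.

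Immediate early genes, which respond within minutes to growth and stress signals, had 4 members of 100 regions (4%). They lay 27.2 kb from Ier5 (ratio 3.74 at 3.33 CPM), 4.44 kb from Klf4 (1.90 at 3.59), 48.2 kb from Myc (1.54 at 11.7) and 6.28 kb from Atf3 (1.402 at 14.9). None of the 4 lay at a gene end. Txnrd1, the thioredoxin reductase gene whose promoter is printed above, held the only member of 81 regions of stress genes. It stood at 32.6, 31.8 and 22.4 CPM in the 3 Smndc1 shRNA libraries, 28.2, 30.4 and 26.6 in the 3 Atrx shRNA libraries, and 20.6, 20.99 and 17.7 with empty vector. Its lowest shRNA library was 1.36 CPM above its highest empty vector library.

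Zinc finger genes named Zfp had 12 members of 855 regions (1.404%). At an end of Zfp239, at chr6:117871892-117872392, the levels were 5.24, 7.72 and 6.84 CPM in the 3 Smndc1 shRNA libraries, 5.99, 8.69 and 6.92 in the 3 Atrx shRNA libraries, and 1.11, 2.09 and 3.26 with empty vector. The region at the ends of both Zfp672 and Zfp692, at chr11:58316076-58316576, stood at 5.99, 7.56 and 9.98 CPM in the 3 Smndc1 shRNA libraries, 5.84, 10.96 and 7.28 in the 3 Atrx shRNA libraries, and 2.79, 3.68 and 2.57 with empty vector. Both were among the gene-end members with the highest ratios, and Zfp239 was the highest of all, although each empty vector value rests on few counts. Solute carriers had 10 members of 1197 regions (0.835%), Slc24a3, Slc25a16, Slc3a2 and Slc39a10 the highest by ratio (2.49, 2.17, 1.94 and 1.87). Potassium channel genes had 5 of 423 (1.18%), the highest inside Kcnk18 (2.67) and Kcnip4 (2.18), beside 3 with TMM sizes and 2 with trended offsets. The signalling lists held 1 each: Skil for TGF-beta and BMP signalling (1 of 89 regions), Fzd1 for Wnt (1 of 117) and Dll1 for Notch (1 of 89).

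The lists with 0 members were cholesterol synthesis (74 regions), interferon response (48), DNA repair and telomeres (55), clustered protocadherins (17) and Hox genes (24), besides the 3 cell type lists above. Of the 37 lists, 29 held at least 1 member, 24 with TMM sizes and 30 with trended offsets. Several lists had more regions under the mirrored rule than members, such as alpha cell genes (2), chromatin remodelers (4), synaptic adhesion (5) and solute carriers (17). Others had fewer, such as endocrine transcription factors (0) and Zfp genes (3). Lists of hormone processing and granules (Pam, 1 of 107), excitability channels (Cacna1d and Kcnh2, 2 of 212), ribosomal proteins (Rps23, 1 of 209) and cadherins (Cdh4, 1 of 224) held shares at or below 0.99%. Histone genes held 1 of 68 (H2ac15), keratin genes 1 of 87 (Krt8), synaptic adhesion genes 2 of 125 (Nrxn3 and Nrxn2) and cytoskeleton and adhesion genes 2 of 89 (Tagln and Krt8). With TMM sizes or trended offsets, every list with fewer than 3 members held 0 to 3, apart from the alpha cell list above and the olfactory and vomeronasal receptors (2 of 151 regions, and 2 and 4 with the other scalings).

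The members with the highest ratios were weak. The highest of all lay between genes, 287 kb from Prmt6, at chr3:110538119-110538619, with 3.15, 4.25 and 8.31 CPM in the 3 Smndc1 shRNA libraries, 1.61, 3.59 and 4.44 in the 3 Atrx shRNA libraries, and 1.39, 0.859 and 0.686 with empty vector. Its lowest shRNA library, Atrx shRNA replicate 1, was 0.213 CPM above its highest empty vector library. Next came a region inside Ppp2r5c, a regulatory subunit gene of protein phosphatase 2A, with a ratio of 4.25, and one 5.45 kb from the olfactory receptor gene Olfr1329, with 3.998. The other 7 among the 10 highest away from gene ends and promoters were the one by Ier5, one inside Col4a1 (3.72), one 49.8 kb from Fam241a (3.56), one 264 kb from Grin2a (3.55), one 156 kb from Qdpr (3.48), the one inside Arid5b and one 1.09 kb from Syap1 (3.34). All 10 had means under 4.0 CPM.

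At gene ends and promoters, Zfp239 (3.20) was followed by Rgs4, a brake on G protein signalling (2.90), Wdr53 (2.71), the shared end of Zfp672 and Zfp692 (2.63), Shq1, which assembles H/ACA small nucleolar RNPs (2.58), and the promoter of a long noncoding RNA 139 kb from Tmem17 (2.58). Habp2 (2.43), Lpcat2b (2.26), the shared end of Gm39270 and Zc3h18 (2.22) and Clgn, a chaperone gene (2.21), completed the 10. Of these 10, 3 lay above 5.5 CPM, at the Zfp672 and Zfp692 end, at the noncoding RNA promoter and at Zc3h18.

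At the other extreme, the 6 strongest members all had ratios under 1.6. Besides Bbc3 and Tob2 they included regions inside Sulf2, an extracellular heparan sulfatase gene (84.6 CPM, ratio 1.47), inside Mtss1, an actin-regulating gene (72.8 CPM, 1.43), and at the shared end of Ccr10 and Cntnap1. The last, at chr11:101174792-101175448, stood at 58.6, 62.4 and 52.3 CPM in the 3 Smndc1 shRNA libraries, 59.9, 58.8 and 46.5 in the 3 Atrx shRNA libraries, and 38.3, 37.7 and 33.5 with empty vector. All 6 shRNA libraries exceeded the highest empty vector library by at least 8.16 CPM there. With TMM sizes the end of Ccr10 and Cntnap1 met the rule, and Bbc3, Tob2, Sulf2 and Mtss1 did not. With trended offsets all of these did. Of the 70 members at 20 CPM or more, 28 met the rule under all 3 scalings.

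Some genes held several members. Msi2, an RNA-binding translation regulator, had 3 of 43 regions. Of these, 2 lay side by side inside the gene, the stronger at chr11:88594717-88595781 with 36.5, 68.97 and 34.9 CPM in the 3 Smndc1 shRNA libraries, 59.5, 54.4 and 44.01 in the 3 Atrx shRNA libraries, and 34.1, 27.01 and 25.7 with empty vector. Empty vector replicate 1 came within 0.766 CPM of the lowest shRNA library. Tacc2, a gene of centrosome-associated coiled-coil proteins, had 3 of 16 regions, all inside the gene, with ratios of 2.66, 1.99 and 1.96. Both regions assigned to Olfr1329 were members. Adamtsl1 and Bcas2, a spliceosome-associated gene, had 2 members each, and 24 genes in all had at least 2. In total 16 pairs of adjacent members lay within 20 kb of each other.

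Counts of members called against empty vector draw on the same values that chose the members and are given only as a description, from which nothing is read. In the edgeR model with TMM over 80345 regions (adjusted p threshold 0.05), 8 members were called higher with Smndc1 shRNA, beside 0.0199% of all regions, and 0 with Atrx shRNA, beside 0.0%. With Atrx shRNA, 437 members and 2527 of all regions had an unadjusted p under 0.05, and DESeq2 and limma voom also called 0. With trended offsets the counts were 100 (beside 0.417%) and 73 (beside 0.193%). Both comparisons share the empty vector libraries.

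The exocytosis list held 1 member of 101 regions, and 2 with each of the other scalings. It lay inside Snap47, which encodes a SNARE-family protein, and the region, at chr11:59446868-59447368, stood at 4.79, 8.503 and 8.68 CPM in the 3 Smndc1 shRNA libraries, 11.1, 6.62 and 7.28 in the 3 Atrx shRNA libraries, and 1.67, 1.72 and 3.77 with empty vector. Empty vector replicate 3 was the highest of its group, with a gap of 1.02 CPM to the lowest shRNA library. Pkp2, the desmosomal plakophilin 2 gene, held a member with different levels in the 2 shRNA groups, at 11.1, 11.2 and 11.4 CPM in the 3 Smndc1 shRNA libraries, 6.14, 6.05 and 5.86 in the 3 Atrx shRNA libraries, and 3.21, 5.16 and 4.63 with empty vector. The Atrx shRNA libraries there lay between the other 2 groups, with no overlap, but the difference between the shRNAs did not pass the test (adjusted p = 0.461, edgeR).

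Between the shRNAs no member passed the test. It was edgeR's quasi-likelihood F test with TMM factors over all tested regions, and 0 of 616 members passed an adjusted p of 0.05, where 0.0759% of all regions did. A share that small leaves few calls to be met among 616 regions, and the choice of members limits the difference, so the count of 0 says little. The lowest adjusted p of a member was 0.294, 12 members (1.95%) had an unadjusted p under 0.05, against 5.40% of all regions, and DESeq2 and limma voom also called 0. With trended offsets 0 members were called, beside 0.592% of all regions, the lowest adjusted p of a member was 0.0622, and 15 had an unadjusted p under 0.05 (2.44%), against 9.29% of all regions. The members' ratios to empty vector had medians of 1.75 with Smndc1 shRNA and 1.78 with Atrx shRNA, and 298 members stood higher with the former and 318 with the latter.

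The log2 difference, Smndc1 minus Atrx, had a median of -0.03 and quartiles of -0.24 and 0.15, and ran from -1.004 to 0.87. Over regions that are no member the quartiles were -0.22 and 0.23. The narrower spread of members is not independent of how they were chosen. The standard error of a single member's difference had a median of 0.35, so a member with no call may still differ. Pkp2 was the furthest towards Smndc1 shRNA (0.87 ± 0.30 SE), followed by regions 159 kb from Nlrp1b (0.75 ± 0.46), inside Cabin1 (0.75 ± 0.48) and inside Arhgap33 (0.69 ± 0.29). Furthest towards Atrx shRNA were regions 21.2 kb from Nuak1 (-1.004 ± 0.50), inside Abce1 (-0.86 ± 0.51), at the Gm39270 and Zc3h18 end (-0.84 ± 0.32) and 595 kb from Tns3 (-0.83 ± 0.54). The member with the lowest adjusted p was the third Msi2 region, at the end of that gene (-0.77 ± 0.24, adjusted p = 0.294, edgeR). It stood at 10.5, 9.76 and 10.2 CPM in the 3 Smndc1 shRNA libraries, 14.8, 19.1 and 17.6 in the 3 Atrx shRNA libraries, and 8.22, 9.09 and 8.41 with empty vector, and all 3 Smndc1 shRNA libraries lay below all 3 Atrx shRNA libraries.

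**Figure D3:**
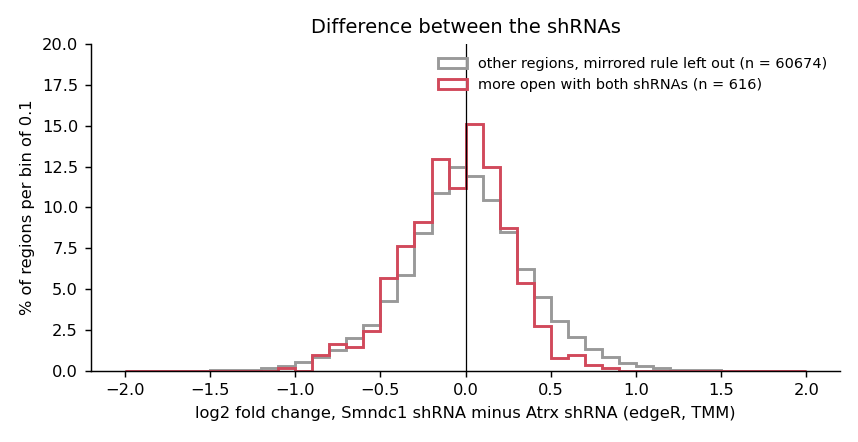
Share of regions (percent per bin of 0.1) by log2 difference between Smndc1 shRNA and Atrx shRNA in the edgeR fit with TMM factors. Shown are the 616 members and the other regions of at least 3 CPM, with those of the mirrored rule left out. The members centre near 0 (median -0.03), with quartiles of -0.24 and 0.15. Over all regions that are no member, mirrored ones included, the quartiles are -0.22 and 0.23. The choice of members limits their spread.

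The members' ratios were chosen to be large in these 9 libraries, so the size of a difference was also read in libraries that took no part in a choice. The rule was applied without replicate 1, 2 or 3 of every group in turn, and the regions chosen in the remaining 6 libraries were read in the 3 left out. The choice found 2296, 1829 and 3095 regions, of which 561, 547 and 516 are members. In the libraries that chose them the median log2 ratio was 0.74 to 0.75. In the left-out replicate 1 it was 0.39 with Smndc1 shRNA and 0.17 with Atrx shRNA, in replicate 2 0.29 and 0.41, and in replicate 3 0.23 and 0.21. Over all regions of at least 3 CPM the medians were -0.07 to 0.05.

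The share of chosen regions above empty vector in the left-out libraries was 60.8% to 76.8%, against 44.0% to 54.3% of all regions. All 6 readings had a median above 0, with a mean of 0.28. At each replicate number both shRNA readings divide by the same empty vector library, and the choices share libraries. The readings are therefore not independent, and most of the chosen regions are no members. Regions chosen as lower in the same way stood at medians of -0.18 to -0.40. No test is given for these readings, since the regions share 3 libraries. With TMM sizes the mean of the 6 medians was 0.27 and with trended offsets 0.24.

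**Figure D4:**
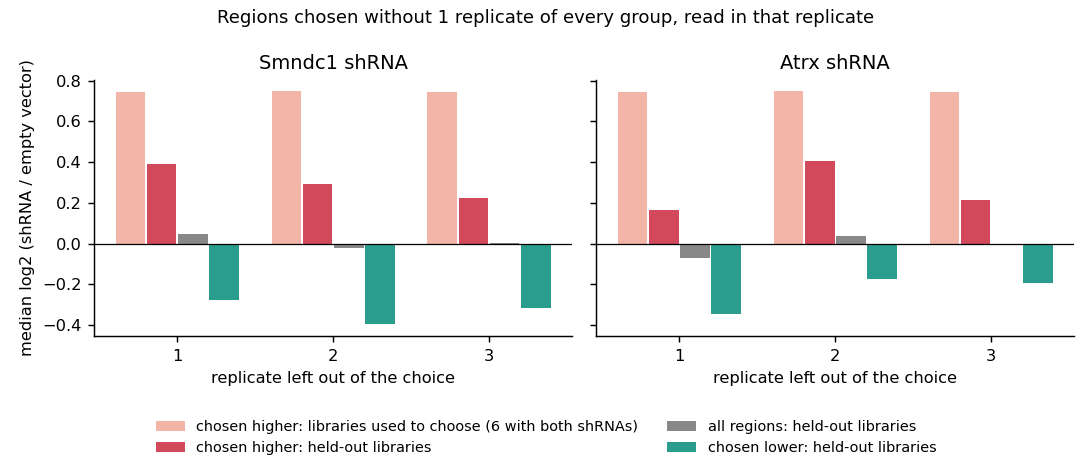
Median log2 ratio of shRNA to empty vector in regions chosen without replicate 1, 2 or 3 of every group (bars by left-out replicate, 1 panel per shRNA, 1 left-out library per group). Regions chosen as higher stood at 0.17 to 0.41 in the left-out libraries against 0.74 to 0.75 in the libraries that chose them, and regions chosen as lower stood below 0.

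By place, 70 members (11.4%, exact binomial interval 8.97% to 14.1%, counting error only) lay at gene ends, 291 (47.2%) in gene bodies and 255 (41.4%) between genes. Over all regions of at least 3 CPM the shares were 19.8%, 41.6% and 38.7%. Gene-end regions are strong and members are weak, so the shares were also read at matched levels: with all regions weighted to the levels of the members, 13.0% would lie at gene ends. Band by band, gene ends held 6.94% of members at 3 to 4 CPM against 4.02% of all regions, and 15.6% against 8.96% at 6 to 10 CPM. At 20 to 40 CPM it was 25% against 45.6%, and at 40 CPM or more 35.7% of 14 members against 66.0%. The share among members was below that of all regions in every band from 10 CPM up and at 4 to 6 CPM, and above it at 3 to 4 and 6 to 10 CPM, with 5 to 20 gene-end members in a band; these differences were not tested. In the mirrored set 5.46% lay at gene ends.

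The share of regions that were members fell with level, from 1.35% at 3 to 4 CPM to 0.233% at 40 CPM or more. Only 33.6% of members were wider than the smallest regions in the table, against 50.2% of regions weighted to the same levels. The share more than 50 kb from any coding gene was 14.6% for members and 14.9% for regions of at least 3 CPM. The 526 members in a gene, at its end or within 50 kb of it were assigned to 515 coding genes. Where gene starts lie inside the bounds of a gene, as at Bbc3 and Txnrd1, a promoter region counts as gene body here.

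Chromosome 11 carried the most members, 91, or 1.38% of its 6615 regions of at least 3 CPM, and the lowest share of the mirrored set, 0.514%. Chromosomes 13 (1.39%) and 7 (1.35%) had similar shares of members. The X chromosome (0.466%, 5 members), chromosome 2 (0.539%) and chromosome 14 (0.571%, 7 members) had the lowest, and chromosome 14 and X had the highest shares of the mirrored set, 4.08% and 3.73%. On chromosomes 11, 14 and X, the median of all regions lay in the same direction as these shares. On chromosomes 13, 7 and 2 it did not, with median log2 ratios near 0 (-0.02, -0.002 and 0.0005). Chromosome 11 held 11.5 ± 0.533% of counts in the empty vector libraries (mean ± SD of 3), 12.3 ± 0.458% in those of Smndc1 shRNA and 11.9 ± 0.420% in those of Atrx shRNA. The median log2 ratio of its regions was 0.11, against -0.10 on chromosome 14 and -0.11 on X. In replicate 1 the share of chromosome 11 was 11.95% for Smndc1 shRNA, 11.6% for Atrx shRNA and 11.15% for empty vector. In replicate 2 the shares in that order were 12.1%, 11.7% and 11.3%, and in replicate 3 they were 12.8%, 12.4% and 12.15%. Replicate 3 of every group was its highest, so the groups overlapped over all libraries. The order was the same at each replicate number, and on chromosomes 14 and X both shRNA libraries stood below empty vector at each number. The numbers were not treated as pairs, so this order does not set aside the overlap. Whether the number of copies of a chromosome differed between the cultures was not tested.

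Regions close to a member leaned the same way. The 502 regions under 5 kb from a member that are no member themselves had a median log2 ratio of 0.16, with 75.5% above 0. At 5 to 20 kb the median was 0.08 (61.7% of 1124 regions above 0), at 20 to 100 kb 0.03 (54.4% of 4690) and over all regions that are no member 0.01 (50.8%). With trended offsets the value under 5 kb was 0.17. These neighbours were measured in the same libraries that chose the members, so their values describe the surroundings and add no independent reading.

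**Figure D5:**
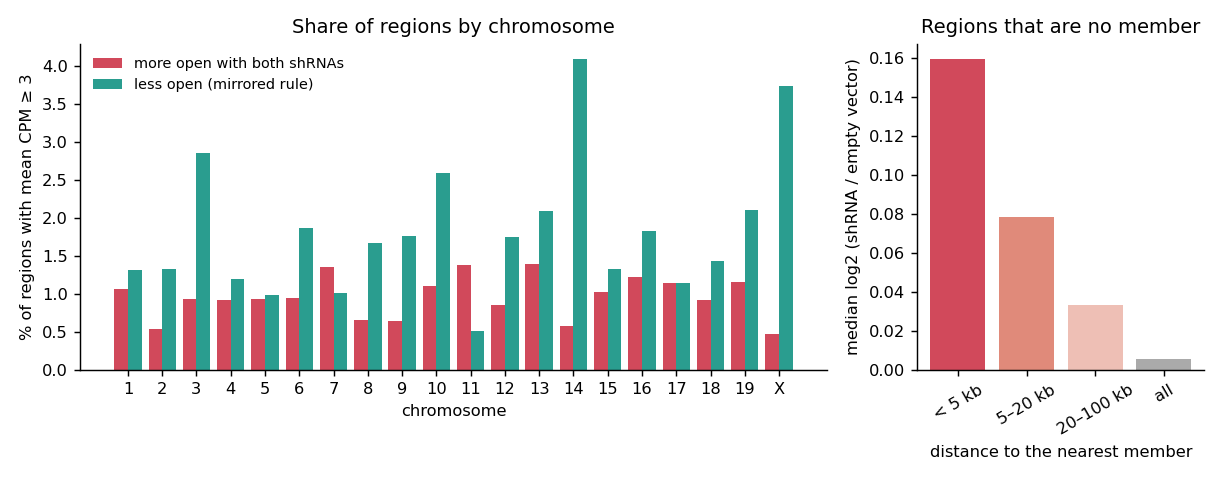
Left, share of regions of at least 3 CPM on each chromosome that are members or meet the mirrored rule (percent); right, median log2 ratio of shRNA to empty vector of regions that are no member, by distance to the nearest member. Chromosome 11 has 1.38% members and 0.514% in the mirrored set, chromosome 14 has 0.571% and 4.08%, and the median falls from 0.16 under 5 kb to 0.01 over all regions.

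Single libraries weighed on the choice. Empty vector replicate 3 was the highest of its group in 294 of the 616 members, against 167 and 155 for replicates 1 and 2, and without it 3640 regions met the rule. Among the shRNA libraries Atrx shRNA replicate 1 was the lowest of the 6 most often, in 135 members, and without it 1124 regions met the rule. Summed over the members, levels were 6603 to 7240 CPM in the shRNA libraries and 4211 to 4298 with empty vector. Leaving out any 1 library kept 425 members in all 9 cases. A member cannot lose its separation when a library is left out. It can only fall below the ratio or the mean level, so this count says little about the separation. Levels with TMM sizes kept 454 of the 616, levels with trended offsets 414, and 334 met the rule under all 3 scalings. Among those 334 were the members at Irx1, Nkx6-1, Snap47, Zfp239, H3f3a and the Elob and Srrm2 end, while the first Bbc3 region, Cdkn1a, Cdkn1b, Cdkn2c, Tob2 and the strongest Msi2 region met it with trended offsets and not with TMM.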

How the data were processed

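ATAC-seq counts of 9 libraries (3 groups of 3, day 5, 75 bp paired-end reads) were taken from the deposited table, which holds raw counts per consensus region; the positions of the regions come from the authors' second deposited file, on mm10 (GRCm38). The submitters' processing notes name the peak caller MACS2 (2.2.7.1) and the aligner Bowtie2 (2.4.4), together with bedtools (2.27.1), SAMtools (2.8.0) and deepTools (3.5.1). Their settings, the merging of regions and the unit counted in each are not given in the sources. The labels call the replicates individual biological ones, and p-values measure the spread between them.

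Members were chosen on CPM over column totals. The members and gene lists were chosen with earlier results of these data known. Calls come from edgeR 4.0.16 (R 4.3.3; TMM, minimum count 10 in its filter, robust quasi-likelihood fit of all libraries together, two-sided F tests adjusted by Benjamini-Hochberg over every region tested), which was tested on simulated data. Trended offsets came from a loess curve (span 0.3) of each library against the mean. DESeq2 1.42.0 and limma 3.58.1 (voom) were alternatives. Ratios per held-out library and the log2 ratios of lists, chromosomes and neighbours used a pseudocount of 0.5 CPM. A region was assigned to a coding gene that holds it, or whose end is nearest within 50 kb, from RefSeq GRCm38.p6 gene bounds without strand; 37 lists (27 by symbol, 10 by name pattern) were counted.

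Named members are the 10 highest ratios at gene ends or promoters and 10 elsewhere, the 6 strongest, 3 on each side of the ratio threshold, up to 4 per list, the 4 extremes of the difference between shRNAs in each direction, and up to 6 genes with several members. Each library was left out in turn, as was replicate 3 of every group. Deviations from group means correlated at 0.012 to 0.282 for replicate numbers 1 and 2 and 0.413 to 0.488 for number 3. In the main fit the numbers were not treated as pairs, so a deviation shared at number 3 counts there as spread between replicates. Intervals are exact binomial at 95% and cover counting error only. Tables were made in Python 3.11.15 (numpy 2.4.6, pandas 2.3.3, scipy 1.17.1), and plots with matplotlib 3.10.9. No genome was used, so only promoter windows were searched for motifs. Some named regions are not reported here.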

Additional observations from a re-analysis of the deposited data

How the results depend on the processing

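The number of members was within 1.5 times of 616 under TMM sizes, trended offsets, a minimum of 2 CPM and ratios of 1.2 and 1.6. With a minimum of 5 CPM it was 360, and without replicate 3 of every group 3095. Leaving out 1 library gave 715 to 3640, with 3640 without empty vector replicate 3, 1124 without Atrx shRNA replicate 1, and 1090 and 1016 without empty vector replicates 1 and 2; a rule on extremes is met more often with fewer libraries. Members called between the shRNAs stayed at 0 except with the replicate block, where 1 was called (inside Fignl1, named for that reason). Called members with Smndc1 shRNA against empty vector (8) came to 0 with DESeq2, 1 with limma voom, 100 with trended offsets, 33 without replicate 3 of every group, and 0 to 19 without 1 library, with 0 without Smndc1 shRNA replicate 1 or empty vector replicate 1 or 2, and 19 without empty vector replicate 3. With Atrx shRNA (0) they came to 73 with trended offsets, 10 in a fit of 6 libraries, 26 without replicate 3 of every group, and 0 to 11 without 1 library. The replicate block, in which the number is a term, gave 95 and 71. Libraries of number 3 shared deviations across the groups (correlations of 0.413 to 0.488), while those of numbers 1 and 2 did so less (0.012 to 0.282). With trended offsets, leaving out 1 library gave 27 to 106 and 9 to 117. Over all regions, calls higher with Smndc1 shRNA numbered 3 with DESeq2, 5 with limma voom and 335 with trended offsets. Those with Atrx shRNA numbered 0, 0 and 155. For the other settings the calls over all regions are not given, so the counts there cannot be set apart from a change over all regions. The gene-end share of 11.4% was 8.44% with a window of 500 bp outside (all regions 18.4%), 16.1% with 2000 bp (21.9%), 8.96% with members chosen on TMM sizes, and 7.55% to 15.1% without 1 library. Apart from the construction named above, the cause of these shifts was not tested. Of 1078 alternatives for the ratios of 98 named members, 1071 moved less than the spread between replicates, and 0 changed direction. Most of these alternatives left out 1 library. There the direction could not change, since every shRNA library of a member lies above every empty vector library. The spread is that of single libraries while the ratio is one of means, so both counts say little about those alternatives. Depth limits the weak members, whose median count was 24.0 to 44.0 per library.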
